A study of Mus musculus with 12 samples.

Results

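The cytosolic ribosomal protein genes were followed in the colon of mice with dextran sulfate sodium (DSS) colitis, with or without ursolic acid (UA). They were taken by symbol. A gene entered if it was protein-coding and its symbol was Rpl or Rps followed by digits, with an optional a, x, l or p ending or a closing digit (Rpl7l1, Rpl22l1 and Rps3a1), and Rplp0, Rplp1, Rplp2 and Rpsa were added. Of 90 symbols that matched, 6 belonged to genes that are not protein-coding and were left out. The remaining 84 genes, of 54532 listed, hold 52 of the large subunit and 32 of the small one. Named pseudogenes (-ps) and the Rps6k kinase genes were not members.

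The ribosome reads mRNA on its small subunit and joins amino acids on its large one, and each ribosomal protein is needed in about the same amount. The genes are therefore among the most strongly and most evenly transcribed in any growing cell, and in the gut the dividing crypt cells depend on them. Their mRNAs begin with a run of pyrimidines, the 5′ terminal oligopyrimidine (TOP) tract, through which the TOR kinase and the binding protein Larp1 adjust their translation and stability. Nearly all of them also have processed pseudogenes scattered over the genome.

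Total RNA was sequenced from 3 colonic tissues in each of 4 groups of male C57BL/6 mice, 6 weeks old at purchase and kept 1 week before the study. Con mice received no DSS (untreated by their labels), and DSS mice drank water with 3% (w/v) of it over 5 days. According to the methods, Con and DSS mice were both given the vehicle by gavage. Both UA groups also received that DSS, and UA by daily gavage, at 1 dose in both, which began 24 h before DSS in the UA+DSS group (7 days in the methods, 9 in the discussion) and 3 days after it in the DSS+UA group (4 and 5 days). The segment of the colon that was sampled is not given in the sources used here, and whether a number shared between groups marks a shared cage or day is not stated. A library is called by its group and replicate number, as in Con 1.

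The files hold whole-number counts of 15566216 to 19498383 per library (median 18569669.5). Levels are CPM, the usual count per library size in units of 1e6, after scaling by the TMM factor (0.871 to 1.09), and levels are compared between genes only as CPM per kb of the principal transcript. Several libraries stood apart from the others of their group, and the first measure below also moved with the groups. The colon position score, the mean log2 CPM of Hoxb13 and Hoxd10 to Hoxd13 (distal genes) minus that of Hoxb3 to Hoxb8 (proximal ones), was 5.53 in Con 1 but -2.97 and -1.86 in Con 2 and Con 3. It lay between 0.363 and 3.10 in DSS, between -5.67 and -4.15 in UA+DSS and between 4.12 and 5.06 in DSS+UA. The score thus did not overlap among DSS, UA+DSS and DSS+UA, and treatment and position cannot be told apart there. The summed level of 8 pancreas acinar markers was 16136 CPM in DSS 3 and at most 555 CPM elsewhere, and that of 8 neutrophil markers was 17729 CPM in DSS 2 and at most 1014 CPM elsewhere. The 15 epithelium markers were present in every library (8129 to 32633 CPM), and none of the 12 cell type lists had a marker without counts in all libraries.

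The sequence at the transcription start was searched for the pyrimidine tract. RefSeq promoters (GRCm38.p6, 250 bases before the start to 50 after it) were matched for 64 of the 84 genes. The start lay on a C followed by at least 6 pyrimidines in 10 of them (15.6%), against 201 of 16514 protein-coding genes (1.22%). Such a run lay anywhere from 15 bases before the start to 35 after it in 41 of the 64 (64.1%), against 24.6% of all. Here are 30 bases from 10 before the start for 4 of the 10 members whose annotated start lies on the tract, given as examples, with the tract in capitals.

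Rpl15 (large subunit, chr14:18270967-18270996, minus strand): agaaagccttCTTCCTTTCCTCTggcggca

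Rps18 (small subunit, chr17:33955646-33955675, minus strand): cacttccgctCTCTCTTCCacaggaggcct

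Rps6 (small subunit, the target of the S6 kinases, chr4:86857348-86857377, minus strand): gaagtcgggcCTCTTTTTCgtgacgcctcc

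Rps27 (small subunit, chr3:90213629-90213658, minus strand): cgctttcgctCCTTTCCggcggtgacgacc

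The motif CTTCCGG, read on either strand and the core of ETS family sites, was in the promoters of 26 of the 64 genes (40.6%) and of 13.4% of all. AAGATGGC, the core of YY1 sites, was in 6 (9.38%, against 3.64%), TATAAA in 7 (10.9%, against 14.3%) and the E-box CACGTG, which MYC can bind, in 6 (9.38%, against 9.18%). These are counts of letters in a fixed window and not of bound sites.

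The 84 genes together held between 4.37% and 9.98% of all counts of a library. In Con, the summed level was 98416 CPM in Con 1, 51219 CPM in Con 2 and 43303 CPM in Con 3. The 3 DSS libraries had 68069, 48766 and 44538 CPM, and the UA+DSS ones 43660.0, 61503 and 50077 CPM. Those of DSS+UA had 72805, 104494 and 74447 CPM, so that every DSS+UA library was above every DSS and every UA+DSS library, while Con overlapped all of them. Group means in CPM were 64312 ± 29799 for Con, 53791 ± 12544 for DSS, 51747 ± 9038 for UA+DSS and 83915 ± 17841 for DSS+UA (SD, n = 3). Con 1 alone was 2.08 times the mean of the other two Con libraries, and without it the Con mean was 47261 CPM. In bulk tissue, more cells with high levels and more mRNA per cell cannot be told apart, and a summed CPM says only what part of the sequenced mRNA these genes hold.

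**Figure D1:**
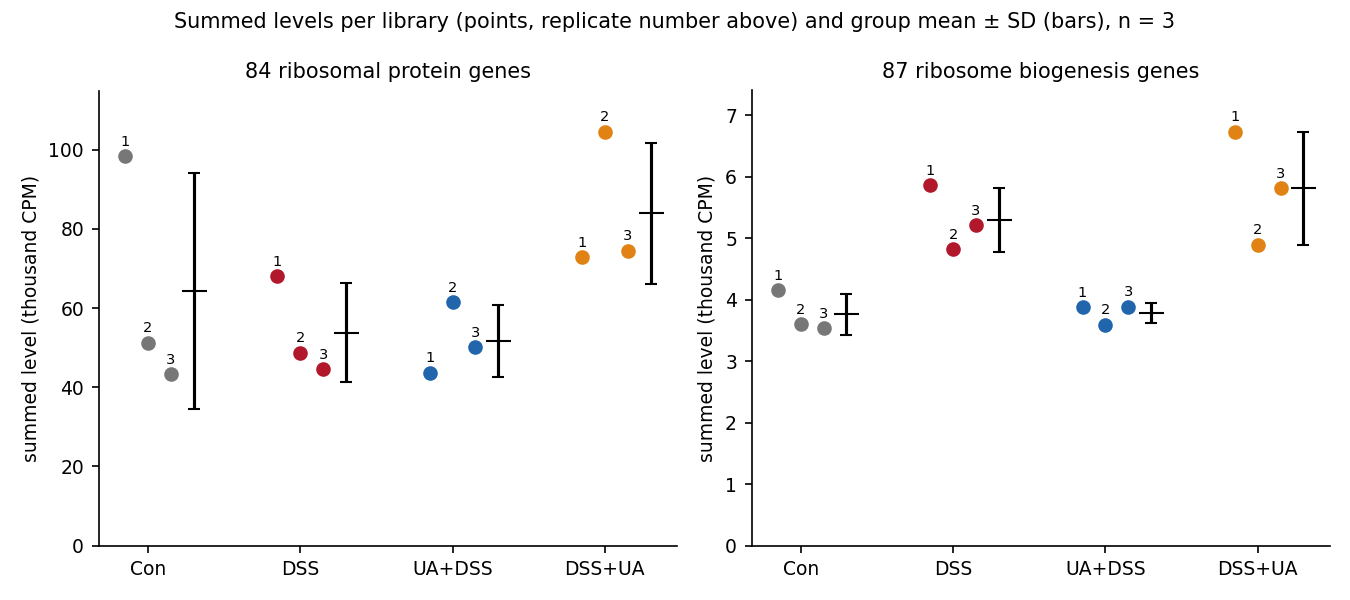
Summed level (y axis, in units of 1000 CPM) of the 84 ribosomal protein genes (left) and of 87 ribosome biogenesis genes (right) in each library (points, replicate number above) by group (x axis), with group mean ± SD (n = 3). On the left Con 1 (98416 CPM) lies near DSS+UA 2 (104494 CPM) and far from Con 2 and Con 3, and on the right all DSS and DSS+UA libraries lie above all Con and UA+DSS libraries.

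The subunits shared their 5 highest libraries. The large-subunit genes summed to 25480 CPM in the lowest library and 60930 CPM in the highest, and the small-subunit genes to 17757 and 43564 CPM. Of the 81 genes that passed the filter on low counts, 80 were higher in Con 1 than in both other Con libraries. The highest of the 12 libraries was Con 1 for 41 of the 81, DSS+UA 2 for 36 and another one for 4. For 45 of the 81, the 5 highest libraries were Con 1, DSS 1 and the 3 of DSS+UA. The same held for 577 of the 17658 tested genes (3.27%). These 5 libraries are the highest in the members' own summed level, so the larger share among members is no test. They are also the 5 libraries with the highest position score, all above 3.

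**Figure D2:**
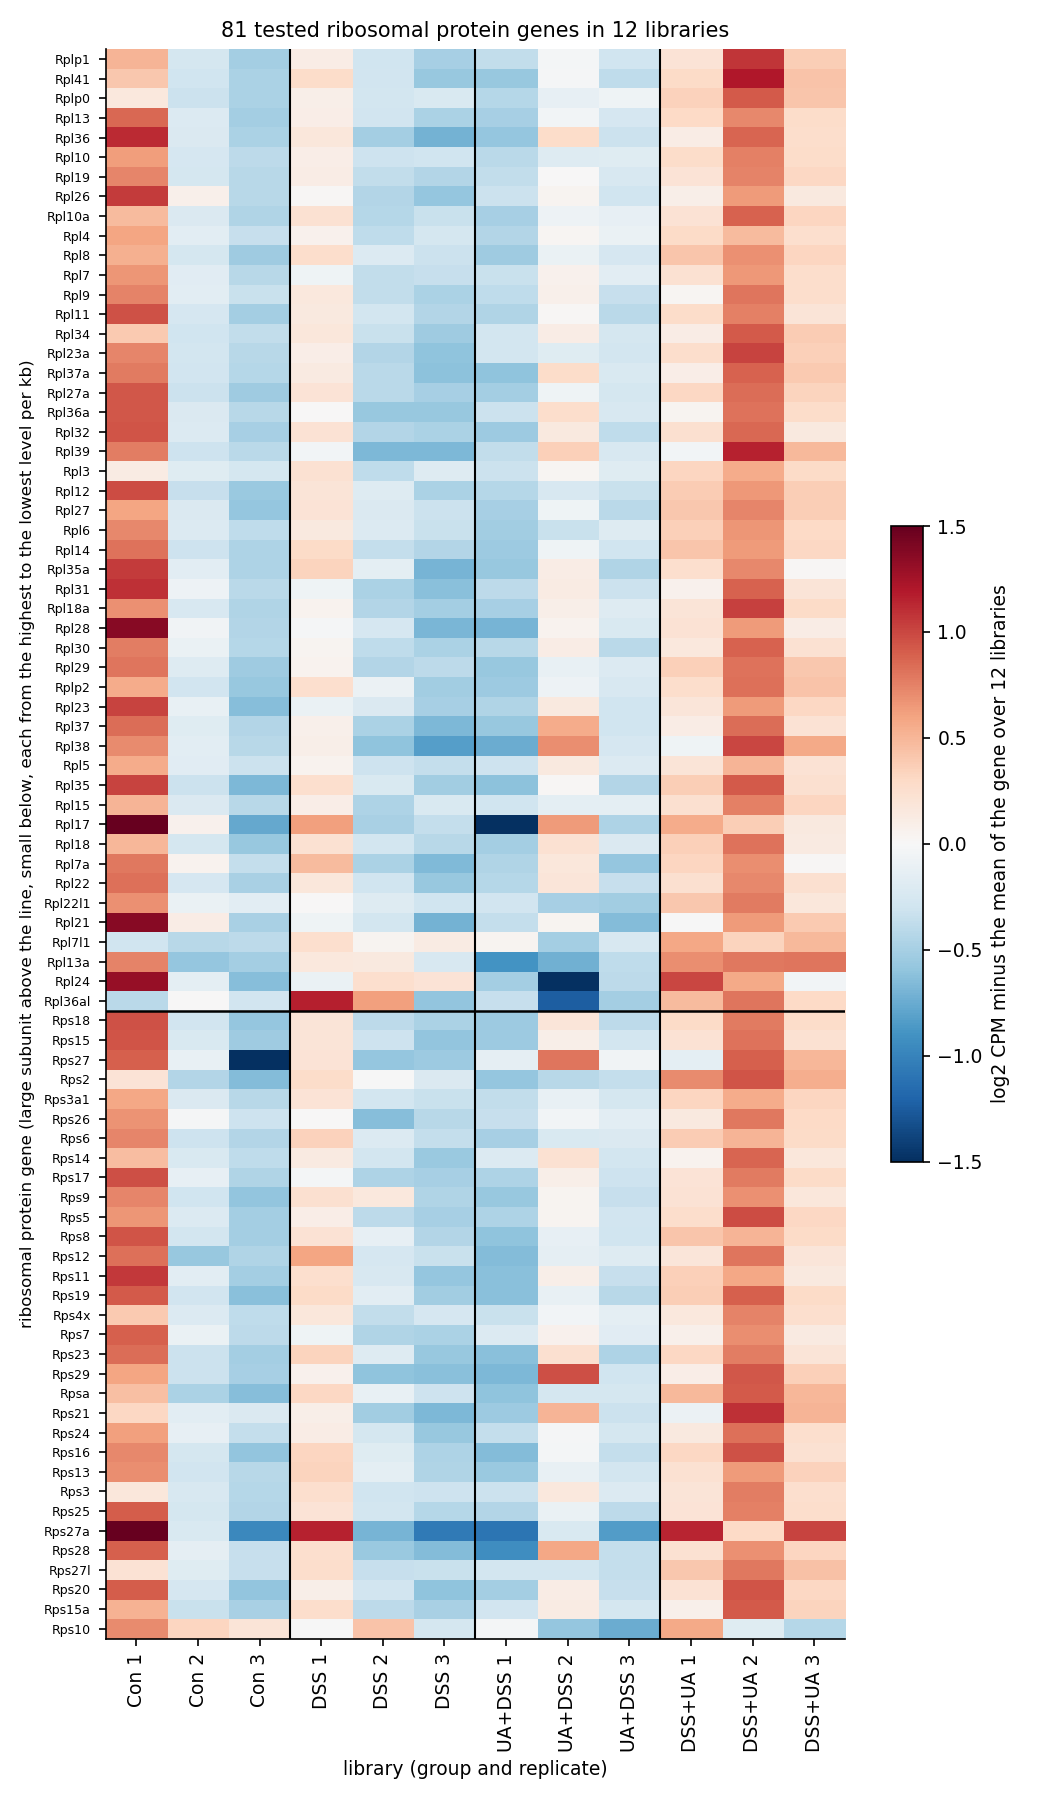
Log2 CPM of each of the 81 tested genes (rows) minus its mean over the 12 libraries (columns), red above and blue below the mean. Most rows share the columns that are red (Con 1, DSS+UA 2) and blue (Con 3, DSS 3, UA+DSS 1), and Rps27a, Rpl17, Rps27, Rpl24 and Rpl36al stand out from the shared pattern.

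Other genes with short transcripts were also high in Con 1 and DSS+UA 2. The principal transcripts of the 84 genes have a median length of 886.5 bases. Among genes outside the list, the 636 tested protein-coding genes with a principal transcript under 900 bases had a median log2 CPM, about each gene's own mean, of 0.25 in Con 1 and 0.56 in DSS+UA 2 but -0.29 in DSS 3. The same median over the 81 ribosomal protein genes was 0.73, 0.78 and -0.48 in these libraries. Over the 7376 genes of 3 kb or more it had the opposite sign, -0.15 in Con 1, -0.22 in DSS+UA 2 and 0.13 in DSS 3. Within the list, the median log2 fold change in DSS+UA against DSS was 0.66 over the 42 tested members under 900 bases. It was 0.61 over the 39 with longer principal transcripts, and in DSS+UA against Con the 2 medians were 0.33 and 0.34. These lengths are of the annotated transcript (5179 bases for Rps15a), and the length of the mRNA present was not measured. The split therefore cannot show what part length has. The part of position along the colon or of transcript length in the ribosomal protein levels was not tested. Both differ between the groups, and the position score does not overlap between DSS+UA and DSS.

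**Figure D3:**
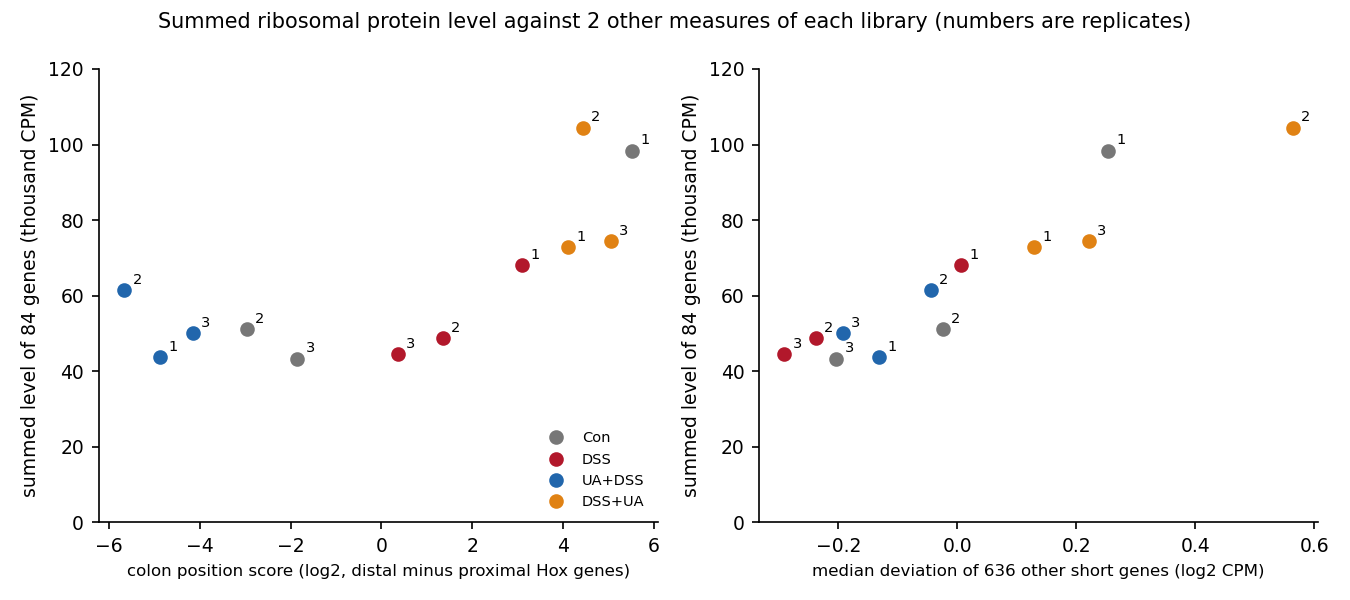
Summed level of the 84 genes (y axis, in units of 1000 CPM) against the colon position score (left) and against the median log2 deviation of 636 other genes with transcripts under 900 bases (right), with 1 point per library coloured by group. The 5 libraries with a position score above 3 have the 5 highest summed levels, and the 2 libraries with the highest sums, DSS+UA 2 and Con 1, have the 2 highest values for other short genes.

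Measured about the median of the 81 genes in each library, the members were steady. The median gene had an SD of log2 CPM over the 12 libraries of 0.48, which fell to 0.16 about the shared median, and 58 of the 81 had under 0.2. Rps15, Rpl13 and Rpl32 followed the median most closely (SD 0.07, 0.07 and 0.08). Rps15, a small-subunit protein, was at 1531, 681 and 552 CPM in Con, 910.5, 641 and 530.0 in DSS, 544, 848 and 657 in UA+DSS, and 927, 1397 and 936 in DSS+UA. Between DSS+UA and DSS its log2 fold change was 0.65 ± 0.39 (SE), with an adjusted p of 0.275. In DSS against Con it was -0.41, and without Con 1 it was 0.17, with the other sign.

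The levels per kb spanned a wide range. Rplp1 was highest at 3229 CPM per kb (mean of 12 libraries), then Rpl41, which encodes the smallest ribosomal protein, at 2908 CPM per kb and Rps18 at 2028 CPM per kb, and the median of the 81 was 875 CPM per kb. The lowest 4 of the tested genes were Rpl36al at 1.17, Rps10 at 5.58, Rpl24 at 6.81 and Rpl13a at 36.0 CPM per kb (Rpl13a was chosen after its values were seen). Each of these 4 shares 20.6% to 47.0% of its exon bases with a second annotated gene on the same strand (Gm49383, RPS10-NUDT3, Gm28037 and Gm45713), and each of those second genes is listed with 0 counts in every library. No other member overlaps a gene on its strand by 10% or more of its exon bases. Their levels are therefore uncertain. For Rps10, the pseudogene Rps10-ps2 held 96.7% to 99.1% of the sum of both, with 167 to 456 CPM against 2.76 to 7.81 CPM of the gene itself.

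The members that did not pass the filter are the paralogs known from muscle and testis. Rpl10l, known from the testis, had no count in any of the 12 libraries. Rpl39l, also known from the testis, had 11 counts in all, and Rpl3l, known from skeletal and heart muscle, had 49. Their partners Rpl10, Rpl39 and Rpl3 were at 855 to 1921, 299 to 1062 and 821 to 1577 CPM. Rpl3l was highest in DSS 2 at 0.751 CPM, and its counts are too few for a comparison.

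Shared sequence limits what can be said of single members. The share of a member's 50-base stretches that are also in transcripts of another gene had a median of 49.3%, and 74 of the 84 had 10% or more in genes elsewhere in the genome. Rps27 (98.7%), Rpl35 (95.1%) and Rpl5 (93.8%) had the largest shares, those of Rpl35 and Rpl5 partly with genes that overlap them on the other strand (Wdr38 and Arpc5l, and Fam69a). The 10 members with under 10%, Rpl7l1 (9.19%) among them, had the same order of the group means, with sums of 5192, 4657, 4511 and 7220.4 CPM for Con, DSS, UA+DSS and DSS+UA. Adding the counts of the 300 named pseudogenes, which held 1772 to 4246 CPM, changed no call.

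Rps27, a zinc finger protein of the small subunit, is the clearest case. It lies at chr3:90212522-90213651, and its coding sequence of 252 bases is the same, base for base, as that of the intronless gene Rps27rt on chromosome 9, so that a read from it has 2 places to go. The sequence that both share is given without the stop codon.

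Rps27 and Rps27rt, coding sequence: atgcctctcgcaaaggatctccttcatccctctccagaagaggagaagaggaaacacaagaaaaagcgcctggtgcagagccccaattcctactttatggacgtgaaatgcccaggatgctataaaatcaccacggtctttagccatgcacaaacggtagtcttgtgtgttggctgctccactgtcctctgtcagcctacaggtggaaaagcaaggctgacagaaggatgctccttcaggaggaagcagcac

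Rps27 was at 959, 478 and 157 CPM in Con, and Rps27rt at 196, 91.7 and 408 CPM, so that Con 3 was the lowest of all libraries for the first and second only to DSS+UA 2 for the other. Their sum was 1156, 570 and 564 CPM in Con. The share of the sum that fell to Rps27rt was 72.2% in Con 3 and 9.31% to 30.3% in the other libraries. With its copies added, the SD of Rps27 about the median of the members fell from 0.50 to 0.28. The log2 fold change from DSS to DSS+UA of Rps27 alone was 0.74, with an adjusted p of 0.385. Rpl17, chosen after its values were seen, was alike: it ranged from 111 to 1116 CPM, and with its 10 copies from 639 to 1954 CPM, and its SD about the median fell from 0.53 to 0.12.

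**Figure D4:**
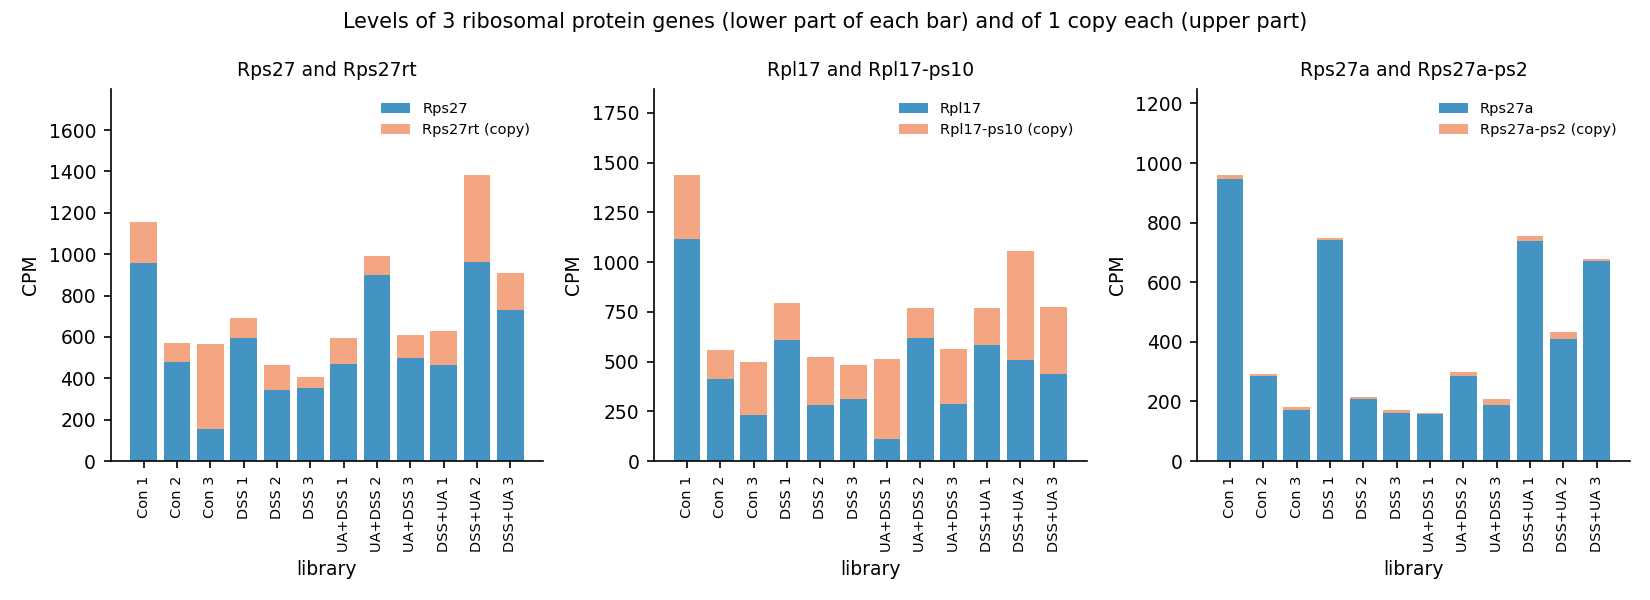
Levels in CPM (y axis) of Rps27, Rpl17 and Rps27a (lower part of the bars) and of 1 copy of each (upper part) in the 12 libraries. The copy takes 72.2% of the sum of Rps27 and Rps27rt in Con 3 and 78.3% of the sum of Rpl17 and Rpl17-ps10 in UA+DSS 1, while the copy of Rps27a is small in every library.

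Rps27a, which is translated as a fusion of ubiquitin with a small-subunit protein, varied also with its copies added. It was at 946, 285 and 171 CPM in Con, 743, 207 and 160.3 in DSS, 156, 286 and 187 in UA+DSS, and 739.5, 410.1 and 672 in DSS+UA. Con 1, DSS 1, DSS+UA 1 and DSS+UA 3 were at 672 CPM or more and the others at 410.1 CPM or less, so that the values part libraries within Con, DSS and DSS+UA. Its 4 copies held 31.9 CPM on average, and with them its SD about the median was still 0.56, from 0.63 alone. Of the ribosomal proteins that the symbol rule leaves out, Fau, a fusion with a ubiquitin-like protein, was at 454 to 1369 CPM and Rack1, a signalling scaffold on the small subunit, at 884 to 2129 CPM.

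The comparison of DSS with Con asks what colitis did to these genes. One of the 81 tested genes was called higher, Rpl7l1, and 0 were called lower, against 13.9% and 12.6% of all tested genes (edgeR quasi-likelihood test, Benjamini-Hochberg adjustment over 17658 genes, threshold 0.05). Rpl7l1 is a relative of Rpl7 that is known from assembly of the large subunit in the nucleolus. It was at 82.3, 76.3 and 77.4 CPM in Con against 121, 104 and 110.5 in DSS. It was the only one of the 81 whose groups did not overlap, and none was without overlap in the lower direction, against 21.2% and 20.1% of all tested genes. Its log2 fold change was 0.51 ± 0.15 (SE), with an adjusted p of 0.0325 in edgeR, and over 25 alternatives the adjusted p ran from 0.00814 to 0.344, with 15 calls. The call was lost without Con 2, Con 3, DSS 1, DSS 3, UA+DSS 3 or DSS+UA 3. Its partner Rpl7, a core protein of the large subunit, was at 1996, 1115 and 940.4 CPM in Con against 1201, 975 and 987 in DSS.

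The median log2 fold change of the 81 genes in DSS against Con was -0.33 (all tested genes -0.03), and 73 of the 81 were negative. That sign rests on Con 1: without it the median, then over 82 tested members, was 0.16, and 2 genes were called higher, Rpl13a and Rpl7l1 (11.3% of all tested genes). At an unadjusted p under 0.05, edgeR had 1 gene, the same that was called, against 40.6% of all tested genes in either direction. DESeq2 and limma-voom each called Rpl7l1 higher and none lower (16.7% and 13.3% of all tested genes higher). With the position score as a covariate, Rpl21, Rpl26, Rpl28 and Rpl31 were called lower, against 14.2% of all tested genes (named here after their values were seen). With an offset for the trend of CPM on transcript length, the median was -0.10.

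**Figure D5:**
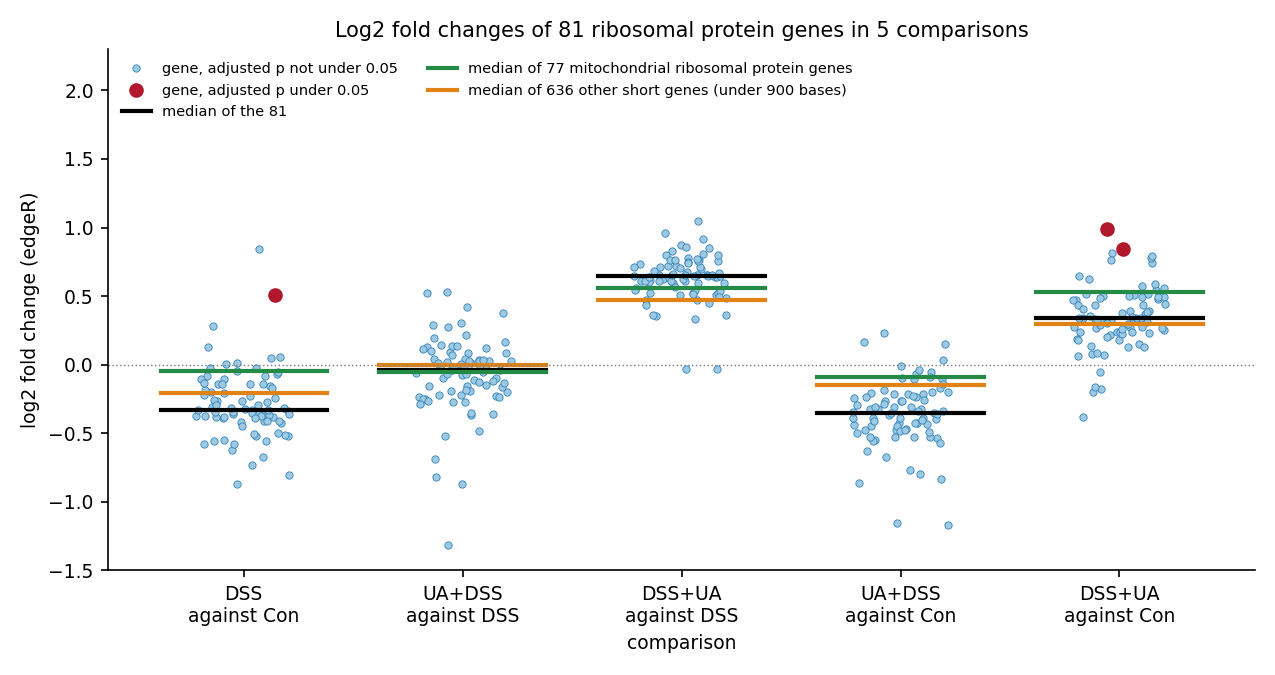
Log2 fold changes (y axis, edgeR) of the 81 tested ribosomal protein genes (points) in the 5 comparisons (x axis), with called genes in red, and the medians of the 81 (black), of 77 mitochondrial ribosomal protein genes (green) and of 636 other genes with transcripts under 900 bases (orange). In DSS+UA against DSS the 3 medians are 0.65, 0.56 and 0.47, and the called genes are Rpl7l1 in DSS against Con and Rpl7l1 and Rps2 in DSS+UA against Con.

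With UA given from before DSS, the median ribosomal protein gene was near its level in DSS. In UA+DSS against DSS, 0 of the 81 were called in either direction, against 8.21% of all tested genes called higher and 10.5% called lower. edgeR had 2 at an unadjusted p under 0.05, both lower, against 34.6% of all tested genes in either direction. DESeq2 called 1 lower (Rpl36al, against 14.1% of all tested genes) and limma-voom none. The median log2 fold change was -0.04, with 33 of 81 positive (0.17 without DSS 1), and the groups did not overlap for 3 genes, all lower in UA+DSS (21.7% of all tested genes), and for 0 that were higher (21.1%). Rpl36al, an intronless paralog of Rpl36a, had the smallest adjusted p (0.0732), at a log2 fold change of -1.32 ± 0.47 (SE). It was at 3.13, 2.10 and 0.845 CPM in DSS against 1.03, 0.500 and 0.904 in UA+DSS, which overlap. Rpl7l1, at 105, 71.3 and 85.8 CPM in UA+DSS, had a log2 fold change of -0.36 against DSS, with an adjusted p of 0.123.

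With the position score as a covariate, the median of this comparison became 0.82, with 36 genes at an unadjusted p under 0.05 and 0 called. Of all tested genes, this fit called only 0.0113% higher and 0.00566% lower, and their share at the unadjusted level is not given. The score does not overlap between UA+DSS and DSS, so the fit extends a trend from the other libraries, and treatment and position cannot be told apart. In UA+DSS against Con, 0 of the 81 were called, against 0.00566% of all tested genes called higher and 0% lower. edgeR had 3 at an unadjusted p under 0.05, all lower (12.1% of all tested genes, in either direction), and DESeq2 and limma-voom called none. The median log2 fold change was -0.35, with 4 of 81 positive, and without Con 1 it was 0.11 (82 members). With the position score as a covariate it was 0.42, with 77 of 81 positive and 0 called (0% of all tested genes). The score does not overlap between UA+DSS and Con either. In the fit without covariates Rpl22l1, the paralog of the RNA-binding large-subunit protein Rpl22, had the smallest adjusted p (0.342), at -0.63 ± 0.23 (SE). It was at 144, 83.8 and 80.5 CPM in Con against 73.6, 63.5 and 62.6 in UA+DSS, with every UA+DSS library below every Con library, which held for 2 of the 81 genes and for 11% of all tested genes (0 and 9.62% in the other direction). Rpl22 itself, at 806, 381 and 324 CPM in Con against 338, 514 and 356 in UA+DSS, overlapped.

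UA given after DSS had begun went with higher levels of nearly all members. Between DSS+UA and DSS the log2 fold change was positive for 79 of the 81 genes, the exceptions being the low genes Rpl36al and Rps10 (-0.03 each), and the median was 0.65, against 0.02 for all tested genes. All 3 DSS+UA libraries were above all 3 DSS libraries for 49 of the 81, against 18.3% of all tested genes, and below them for 0, against 16.4%. Yet 0 of the 81 were called higher, against 2.54% of all tested genes, and 0 were called lower, against 5%. At an unadjusted p under 0.05 edgeR had 20, all higher (29.9% of all tested genes, in either direction), DESeq2 called 3 higher (Rplp0, Rps2 and Rps27l, against 6.98% of all tested genes) and limma-voom none. The median SE of a member was 0.34.

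The stalk proteins Rplp0, Rplp1 and Rplp2, which draw elongation factors to the ribosome, show this. Rplp0 was at 2602, 2018 and 2100.3 CPM in DSS against 3126, 4656 and 3266 in DSS+UA, with a gap between the groups. Its log2 fold change was 0.72 ± 0.26 (SE), with an adjusted p of 0.0933 in edgeR, which ran from 0.0232 to 0.922 over 25 alternatives. Rplp1, at 1653, 1240.3 and 1078 CPM in DSS against 1759.8, 3209 and 1971 in DSS+UA, had 0.81 (adjusted p = 0.123), and Rplp2 had 0.61 (adjusted p = 0.208). Rpsa, the small-subunit protein also known as the laminin receptor precursor, was at 2075, 1548 and 1351 CPM in DSS against 2345, 3171 and 2362 in DSS+UA, with 0.66 (adjusted p = 0.174).

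Rps27l, a paralog of Rps27 that p53 is known to induce, had the smallest adjusted p of this comparison, 0.0674. It was at 189, 123 and 124 CPM in DSS against 209, 272 and 214 in DSS+UA, without overlap, and its log2 fold change was 0.67 ± 0.21 (SE). Unlike Rps27, it shares only 22.4% of its stretches with other genes. Rpl22l1 was at 90.1, 78.5 and 72.6 CPM in DSS against 119, 154 and 100.6 in DSS+UA (0.63, adjusted p = 0.104). Rpl39, a small protein of the exit tunnel, had the largest log2 fold change of the 81, 1.05 ± 0.39 (SE), with an adjusted p of 0.105. It was at 461, 299 and 299 CPM in DSS against 461, 1062 and 668 in DSS+UA, so that the lowest DSS+UA and the highest DSS library overlap.

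These values depend on single libraries. Without DSS+UA 2 the median, over 82 tested members, was 0.41. There 1 gene was at an unadjusted p under 0.05 and 0 were called higher (0% of all tested genes). Without DSS 1 the median was 0.86, 44 genes were at that unadjusted level and 1 was called (Rps27l, against 1.52% of all tested genes). The shares of all tested genes at the unadjusted level are not given for these fits. Leaving out Con 1, which is in neither group but enters the shared spread, gave 6 calls among 82 tested members at a median of 0.65 (Rpl13a, Rpl22l1, Rpl23a, Rpl29, Rps2 and Rps27l), against 4.20% of all tested genes. With the position score as a covariate the median was 0.28 with 0 calls (0.159% and 0.974% of all tested genes called higher and lower). With the offset for transcript length it was 0.24 with 0 calls (1.34% and 3.53%). The 77 tested mitochondrial ribosomal protein genes, which serve the ribosome of that organelle, had a median of 0.56. Of them 23 were called higher and 0 lower, against 2.54% and 5% of all tested genes. The count of 23 was 0 without DSS+UA 2 or DSS+UA 3 (0% of all tested genes called higher in each) and in the fit of the 2 groups (0.0548%). It was 3 without DSS 2 (0.166%), 40 without Con 1 (4.20%) and 10 to 28 without any other 1 library. With the position score it was 2 (0.159%), with the offset for length 4 (1.34%), and DESeq2 called 51 (6.98%). The 636 other genes with short transcripts had a median of 0.47 with 84 called higher and 5 lower, against the same 2.54% and 5%. The summed level of the epithelium markers was also higher in every DSS+UA library (18656 to 30278 CPM) than in every DSS library (8129 to 17994 CPM), and that of 8 fibroblast markers lower (1014 to 2484 against 3444 to 7176 CPM). The part of these cells in the result was not tested.

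DSS+UA against Con called 2 of the 81 higher, Rpl7l1 and Rps2, and 0 lower, against 9.13% and 8.95% of all tested genes. At an unadjusted p under 0.05, 8 were higher and 0 lower, against 36% of all tested genes in either direction. DESeq2 called 5 higher and limma-voom 3 (12.9% and 8.58% of all tested genes), and neither called any lower. Rpl7l1, at 153, 128 and 143 CPM in DSS+UA, had a log2 fold change of 0.84 ± 0.16 (SE) and an adjusted p of 0.00755, and 24 of 25 alternatives kept the call. Against DSS its log2 fold change was 0.33, with an adjusted p of 0.172. Rps2, a small-subunit protein at the mRNA entry, was at 1758, 1120.3 and 968 CPM in Con, 1851, 1516 and 1317 in DSS, 1018, 1139 and 1185 in UA+DSS, and 2492, 2926 and 2229 in DSS+UA. Its DSS+UA libraries were above all others, with a log2 fold change of 0.99 ± 0.26 (SE) and an adjusted p of 0.0246 against Con, and 0.71 (adjusted p = 0.0962) against DSS, and 71.3% of its stretches are also in other genes. The call of Rps2 against Con was kept by 17 of 25 alternatives and lost without Con 2, without Con 3 and without any 1 of the DSS+UA libraries.

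Next to these, Rps27l (0.64, adjusted p = 0.0535), Rplp0 (0.77, adjusted p = 0.0559) and Rpsa (0.79, adjusted p = 0.0914) did not pass in DSS+UA against Con. The median of the 81 was 0.34, with 76 positive, and the groups did not overlap for 8 genes, all higher, against 19.8% of all tested genes higher and 19.2% lower. Here too Con 1 decides: without it the median was 0.80 and 23 of 82 genes were called higher (9.29% of all tested genes), among them all 3 stalk proteins, Rpsa, Rps2, Rps6 and Rps27l. With the position score as a covariate, the median was -0.12 and Rpl7l1 alone was called, higher (5.71% of all tested genes higher and 6.75% lower). All comparisons with Con share its libraries, as those with DSS share the DSS ones, and they are not independent of each other.

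More of the genes that build ribosomes were called, but the difference from the genes of its proteins was not tested. Of 87 ribosome biogenesis genes (rRNA synthesis, processing and subunit assembly), all tested, 48 were called higher and 2 lower in DSS against Con (13.9% and 12.6% of all tested genes), 1 higher and 37 lower in UA+DSS against DSS (8.21% and 10.5%), and 52 higher and 0 lower in DSS+UA against Con (9.13% and 8.95%). In DSS+UA against DSS and in UA+DSS against Con edgeR called 0, with 7 at an unadjusted p under 0.05 in each (29.9% and 12.1% of all tested genes), while DESeq2 called 3 and 0 and limma-voom 0 and 0. Their medians in the first 3 of these were 0.63, -0.54 and 0.71. These counts depend on single libraries, as the shares of all tested genes do, while the medians kept their sign. The 48 calls in DSS against Con became 26 without Con 2 or DSS 1 (8.13% and 10.2% of all tested genes called higher). They were 31 without Con 3 and in the fit of the 2 groups (11.6% and 7.39%), and 37 to 57 without any other 1 library (10.5% to 14.8%). Under the position score they were 47 (16.3%), and 5 when scaled by the ribosomal protein total (6.91%). The 37 lower calls in UA+DSS against DSS became 0 without UA+DSS 2 (0.498% of all tested genes called lower) and 8 without UA+DSS 3 (4.06%). They were 10 without DSS 1 (6.53%), 18 without UA+DSS 1 (5.94%) and 23 without DSS+UA 3 (7.74%). Without any other 1 library they were 26 to 51 (6.12% to 12.1%). They were 0 both with the position score (0.00566%) and when scaled by that total (1.94%). The 52 calls in DSS+UA against Con became 30 without DSS+UA 3 (3.44% of all tested genes called higher) and 31 without Con 3 (4.13%). They were 33 without Con 2 or DSS+UA 1 (4.75% and 5.04%) and 45 to 61 without any other 1 library (6.75% to 11.7%). They were 29 in the fit of the 2 groups (5.91%), 30 with the position score (5.71%) and 0 when scaled by that total (0.742%). Their summed level did not overlap between the Con libraries (3540.1 to 4149 CPM) and the DSS libraries (4818 to 5860 CPM), while that of the ribosomal protein genes did. Several cell type lists were also without overlap between DSS and Con: the neutrophil list summed to 897 to 17729 CPM (Con 10.3 to 115), 8 macrophage markers to 1361 to 3752 CPM (Con 203 to 501), 8 fibroblast markers to 3444 to 7176 CPM (Con 1240 to 2002) and 10 T cell markers to 53.7 to 173 CPM (Con 25.9 to 38.9), while the epithelium list was lower at 8129 to 17994 CPM (Con 18593 to 31833). The 10 proliferation markers, at 1026 to 1209 CPM (Con 756 to 1043), overlapped. Their part in it was not tested.

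Gar1, of the particles that modify rRNA, was at 20.6, 23.1 and 18.8 CPM in Con, 53.4, 40.8 and 44.4 in DSS, 22.5, 23.0 and 25.8 in UA+DSS, and 54.4, 41.6 and 47.4 in DSS+UA. Its log2 fold change was 1.15 in DSS against Con (adjusted p = 0.00199) and -0.96 in UA+DSS against DSS (adjusted p = 0.00911). Ddx18, a nucleolar helicase, rose by 1.05 in DSS against Con (adjusted p = 0.00329), and Nhp2, a partner of Gar1, fell by 1.08 in UA+DSS against DSS (adjusted p = 0.0101). Polr1d and Polr1c, subunits shared by RNA polymerases I and III, had the smallest p of the list in DSS+UA against DSS, at 0.77 and 0.60 (adjusted p = 0.0541 and 0.0608).

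Of 28 matched translation factors and other genes with TOP mRNAs, 1 was called higher and 1 lower in DSS against Con (all tested genes 13.9% and 12.6%). In DSS+UA against DSS 0 were called, 8 were at an unadjusted p under 0.05 in edgeR (29.9% of all tested genes) and the median was 0.45. Nap1l1, a histone chaperone, was higher in DSS than in Con (0.95, adjusted p = 0.00801), and Eif4a2, a helicase of translation initiation, lower (-0.86, adjusted p = 0.00717), and both turned the other way in UA+DSS against DSS (-0.99 and 0.92). Eef1g, of the elongation factor complex, and Btf3, of the nascent chain complex, had the smallest p in DSS+UA against DSS, at 0.51 and 0.53 (adjusted p = 0.0996 and 0.110).

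The TOR pathway list (30 genes, all tested) had 4 called higher and 3 lower in DSS against Con, close to the 13.9% and 12.6% of all tested genes, 1 and 2 in UA+DSS against DSS (8.21% and 10.5%), and 1 and 0 in DSS+UA against DSS (2.54% and 5%). Eif4ebp1, a translation repressor that TOR inactivates, was at 24.7, 24.8 and 19.2 CPM in Con, 53.8, 82.6 and 50.03 in DSS, 23.9, 31.7 and 35.3 in UA+DSS, and 65.7, 62.4 and 55.6 in DSS+UA. It rose in DSS against Con (1.44, adjusted p = 0.00267) and fell by 1.04 in UA+DSS against DSS (adjusted p = 0.0137). Ddit4, a stress-induced brake on TOR, rose in DSS against Con (1.58, adjusted p = 0.00484), the cap-binding factor Eif4e fell by 0.66 in UA+DSS against DSS (adjusted p = 0.0190), and Lamtor1, which holds TOR complex 1 at the lysosome, rose in DSS+UA against DSS (0.59, adjusted p = 0.0276). Sesn1, a further TOR inhibitor, had -0.89 there (adjusted p = 0.0610). Mtor (41.9 to 60.3 CPM), Larp1 (131 to 193 CPM) and Rps6kb1 (41.3 to 63.4 CPM) were called in none of the 5 comparisons.

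Of 20 genes of the MYC network and of factors at ribosomal protein promoters, 2 were called higher and 3 lower in DSS against Con, close to the 13.9% and 12.6% of all tested genes, 2 and 1 in UA+DSS against DSS (8.21% and 10.5%), and 0 in DSS+UA against DSS (3 at an unadjusted p under 0.05 in edgeR, against 29.9% of all tested genes). Myc was at 27.5 to 40.2 CPM in Con against 43.7 to 49.7 in DSS, without overlap, with a log2 fold change of 0.50 and an adjusted p of 0.0585. E2f1, which drives entry into S phase, rose in DSS against Con (0.98, adjusted p = 0.00911), Mycn fell by 2.16 (adjusted p = 0.00787) at levels of at most 4.66 CPM, and Mxd4, an antagonist of MYC, was higher in UA+DSS than in DSS (0.98, adjusted p = 0.0187). Mlx and Mycl had the smallest p in DSS+UA against DSS (0.82 and 0.48, adjusted p = 0.0522 and 0.115). Of 20 matched chaperones and surveillance factors of ribosomal proteins, 5 were called higher and 0 lower in DSS against Con (13.9% and 12.6% of all tested genes), 0 and 3 in UA+DSS against DSS (8.21% and 10.5%), and 0 in DSS+UA against DSS (1 at an unadjusted p under 0.05 in edgeR, against 29.9% of all tested genes). Grwd1, which binds free Rpl3, rose in DSS against Con (1.25, adjusted p = 0.00599) and fell by 0.90 in UA+DSS against DSS (adjusted p = 0.0296), as did Ipo9, an importin (0.89 and -0.72). Hbs1l, which rescues stalled ribosomes, and Aamp had the smallest p in DSS+UA against DSS, at 0.30 and 0.26 (adjusted p = 0.113 and 0.187).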

How the data were processed

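Colon total RNA (3 samples per group, TruSeq, Illumina HiSeq) was mapped by the authors to GRCm38, and counts came from Hisat2, per the methods. Per the labels, FastQC, HISAT2 and Cuffdiff were named. The sources used here give no versions, annotation, use of strand or handling of reads with several places. The deposited files hold whole-number counts per Ensembl gene, of which 54495 were named through GENCODE M21.

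edgeR 4.0.16 (R 4.3.3) kept 17658 genes by filterByExpr (99.8% of counts), with TMM factors, and all 12 samples entered 1 quasi-likelihood model (robust, no covariates) (biological coefficient of variation 0.352). p-values were adjusted over all tested genes by Benjamini-Hochberg and measure the spread between these samples only. The fit was tested on simulated data. Log2 CPM used a prior count of 2. A copy is a gene elsewhere that holds 10% of a member's and shares 25% of its own 50-base stretches. Alternatives were DESeq2 1.42.0, limma-voom (limma 3.58.1), other scalings and filters, a fit of 2 groups, the replicate block, the position score, added copies, an offset for transcript length and leaving out each library, with that offset and the copies by sequence chosen after seeing the data. The members and the lists were chosen with earlier results of these data known. Members were named as paralog pairs, stalk proteins and Rpsa, the called ones, and the extremes of level, spread and shared sequence, with Fau and Rack1. In pathway lists the 2 smallest p of each of the first 3 comparisons were named, with Myc, Larp1, Mtor, Eif4ebp1 and Rps6kb1. Cell type lists are given as summed levels only.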

Additional observations from a re-analysis of the deposited data

How the results depend on the processing

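Shares of all tested genes called in the same direction by the same fit are in brackets. The number of members called higher in DSS against Con, 1, was 0 with upper-quartile factors (12.8%) and without a filter (6.33%). It was also 0 in the fit of the 2 groups (7.39%) and when scaled by the ribosomal protein total (6.91%), and 0 to 2 when 1 library was left out (8.13% to 14.8%). The number called lower, 0, was 4 with the position score as a covariate (14.2%) and 0 to 1 with 1 library left out (6.74% to 11.8%). In UA+DSS against DSS the number called lower, 0, was 1 with DESeq2 (14.1%) and 0 to 1 with 1 library left out (0.498% to 12.1%). In DSS+UA against DSS the number called higher, 0, was 3 with DESeq2 (6.98%) and 0 to 6 with 1 library left out (0% to 4.20%, 6 members without Con 1). The number called lower was 0 to 1 (Rpl3l, without DSS 3, with 5.17% of all tested genes). In DSS+UA against Con the number called higher, 2, was 5 with DESeq2 (12.9%), 1 in the fit of the 2 groups (5.91%) and 1 with the position score (5.71%). It was 0 when scaled by the ribosomal protein total (0.742%) and 1 to 23 with 1 library left out (3.44% to 11.7%). Summed over the 10 members with under 10% of their stretches elsewhere, the means for Con, DSS, UA+DSS and DSS+UA were 5192, 4657, 4511 and 7220.4 CPM. Scaled by the ribosomal protein total, the log2 fold changes in DSS+UA against DSS of Rpl7l1 (-0.29), Rplp2 (-0.0227) and Rpl22l1 (-0.0324) turned negative, as that scaling removes the shared change. In DSS against Con, Rps15 ran from -0.69 to 0.17 and Rpl13 from -0.64 to 0.15 with 1 library left out. Of the other results for named members, 19 alternatives lost a call (3 results), 20 gained one (8 results) and 505 did neither. The replicate block gave 3 calls higher in DSS+UA against Con in place of 2 (8.73%), 1 in DSS against Con (13.2%) and 0 in the others (0.00566% to 7.86%). The deviations of samples that share a number had correlations of -0.22 to 0.19 (median 0.04, 5 of 18 pairs above 0.1). For samples with different numbers they were -0.29 to 0.24 (median -0.02, 9 of 36 pairs above 0.1). Whether a shared number marks a shared cage or day cannot be told from these values.

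Limits lie in 3 libraries per group, in Con 1, in reads that fit several copies and in the position score and transcript length, which move with the groups. A member needed a log2 fold change well above its SE (median 0.34) to be called.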
